A study of Huso dauricus with 9 samples.

Results

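The transcripts described here are those of 40 genes of the cell cycle and DNA replication, measured in the gut of 9 kaluga sturgeon (Huso dauricus). A transcript of the assembled table was taken as a member when its Swiss-Prot gene name, its Swiss-Prot entry name or its KEGG gene name was one of the 40 symbols, and the transcript of highest mean level stood for each gene. By that rule 38 of the 40 genes were found among 59331 transcripts. They were sorted by their known roles into 15 genes of S phase, when DNA is copied, 21 genes of mitosis and the steps that lead to it, and 2 genes, MKI67 and STMN1, that belong to neither. GINS2, a subunit of the replicative helicase complex, and TPX2, which activates Aurora A on the spindle, were not found under those names.

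Before S phase, CDC6 loads the ring-shaped MCM helicase onto replication origins. Cyclin E with its kinase then starts copying, CDC45 and GINS turn the MCM ring into a moving helicase, and PCNA holds the polymerases on the DNA while nucleotide enzymes supply the building blocks. Cyclin A and the B cyclins with CDK1 then drive the cell into mitosis, where Aurora and Polo kinases build the spindle, the BUB proteins hold the checkpoint until every chromosome is attached, and the anaphase-promoting complex with CDC20 and UBE2C ends mitosis by marking its targets for destruction. In the vertebrate intestine these genes are used mainly by dividing cells at the base of the folds or crypts, which renew the epithelium, and by dividing immune and stromal cells.

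Stock enhancement, the release of kaluga into the Songhua River, had run for 0 days in the group named Ori, for 14 days in D14FL and for 30 days in D30FL, with 3 fish in each. All fish shared a short acclimation before release and a fluorescent dye mark in the snout, and released fish were caught again with seine nets. Ori stands at 0 days of release, so recapture from the river may differ between Ori and the later groups. Each library is the poly(A) RNA of the gut of 1 fish, different fish were sampled at each time, and a fish number such as D14FL 2 therefore links no animals across times. A further time point in the study's design is not analysed here. No group of the same age that was never released is among these libraries. Days in the river, recapture, season, diet, growth and any laboratory batch therefore cannot be told apart. Age, sex and batch are not stated in the labels.

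Levels are the deposited FPKM, a read number divided by transcript length and by library size. Their sum was between 810895 and 929953 in each library, and depth is unknown. Along the main axis of variation between libraries (42.1% of the variance) the Ori fish lay between 116.8 and 149.8, D30FL 3 at 36.5 and the other 5 fish between -183.5 (D30FL 2) and -20. D30FL 3 therefore stood nearest to the Ori fish, and the main day 30 results are given with and without it. The number of transcripts at 1 FPKM or more ran in a similar order. It was 35812 to 41584 in the Ori fish and 42228 in D30FL 3. It was 45145 to 48105 in the D14FL fish and D30FL 1, and 49503 in D30FL 2. The part of this difference between libraries in the axis was not tested. Marker transcripts of enterocytes, the absorptive cells that define gut tissue, were present in every library, with a summed level of between 1570 and 6470 FPKM.

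Changes are log2 differences of FPKM + 1, each with its standard error (SE), after subtracting the median change of all 54200 transcripts tested. That median was 0.38 at day 14 and 0.37 at day 30 against day 0, and median-of-ratios scaling brought the medians to 0.04 and 0.06. A transcript was called when limma gave it a Benjamini-Hochberg adjusted p under 0.05 over all tested transcripts, and that test was run without subtracting the median. All 38 members passed the filter on low values (1 FPKM or more in 3 or more libraries) and were tested. ESPL1 and MKI67 reached it only with the Ori fish, where they are high, so a decrease was built into their passing. Of the other 36 members, 35 lay below the median of all transcripts at day 14 and 36 at day 30.

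At day 14 nearly all of the cell cycle transcripts stood below their day 0 level. Relative to the median of all transcripts 37 of 38 members were lower, with a median log2 change of -1.40, and 32 were lower by more than 1 unit, as 11.1% of all tested transcripts were. In limma's test over all transcripts TYMS, RRM2 and AURKA fell and 0 members rose. That is 3 of 38 members, where 0.6% of all tested transcripts were called lower and 2.17% called higher. In 25 of 38 members all 3 D14FL fish lay below all 3 Ori fish, which held for 6.7% of all tested transcripts. At an unadjusted p under 0.05, 23 members were lower and 0 higher, beside 4.64% of all transcripts lower. ESPL1 and MKI67, which passed the filter on low values only with the Ori fish, are among the 25. MKI67 is also among the 23 and the 32. In bulk tissue, fewer dividing cells and less RNA per dividing cell cannot be told apart.

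**Figure D1:**
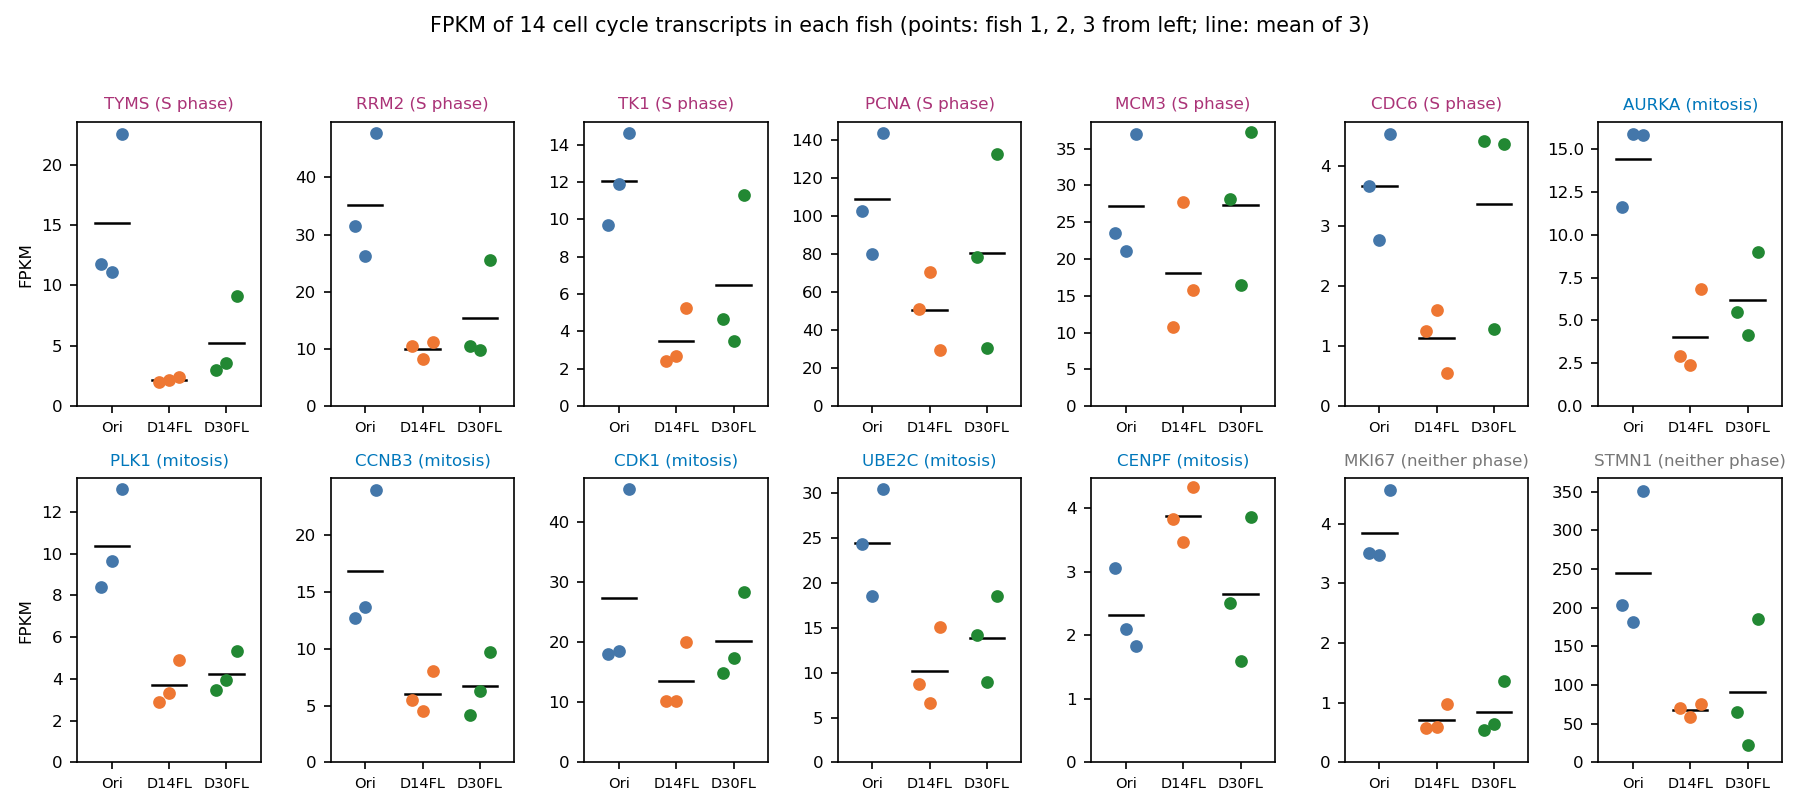
FPKM (vertical axes, each from 0) of 14 cell cycle transcripts in the 3 fish of each group, with points for fish 1, 2 and 3 from left to right and a line at the group mean. TYMS, RRM2, AURKA, PLK1 and MKI67 had all D14FL fish and all D30FL fish below all Ori fish, while all 3 D14FL values of CENPF lie above every Ori value.

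The enzymes that supply nucleotides held the largest decreases among the S phase members. TYMS (TRINITY_DN30232_c0_g1_i3_3) is thymidylate synthase, which makes the thymine nucleotide from its uracil form. Its level was 11.8, 11.1 and 22.5 FPKM in Ori fish 1, 2 and 3, 1.99, 2.13 and 2.39 FPKM in the D14FL fish, and 2.97, 3.56 and 9.09 FPKM in the D30FL fish. No D14FL or D30FL fish reached the lowest Ori value, and the 3 D14FL fish lay close together. TYMS averaged 2.17 ± 0.199 FPKM in D14FL and 15.1 ± 6.4 FPKM in Ori (SD, n = 3 each), and its log2 change of -2.67 (SE 0.42, limma adjusted p = 0.0234) was the largest decrease among the members.

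RRM2 (TRINITY_DN36375_c1_g1_i4_1) is the small subunit of ribonucleotide reductase, the enzyme that turns ribonucleotides into deoxyribonucleotides. It stood at 31.5, 26.2 and 47.7 FPKM in the Ori fish, 10.5, 8.18 and 11.3 FPKM in the D14FL fish, and 10.6, 9.9 and 25.5 FPKM in the D30FL fish. All 6 later fish lay below the lowest Ori fish, D30FL 3 by a narrow margin. At day 14 RRM2 fell, with a log2 change of -2.07 (SE 0.39, limma adjusted p = 0.0453). A further RRM2 transcript, from another assembled locus, had 9.64, 9.87 and 23.1 FPKM in the Ori fish, 5.64, 6.24 and 7.87 FPKM in the D14FL fish, and 16.2, 14.6 and 21.6 FPKM in the D30FL fish. It lay below Ori without overlap at day 14 (log2 change -1.29, limma adjusted p = 0.177) and within the Ori range at day 30 (log2 change 0.00, limma adjusted p = 0.549).

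TK1 (TRINITY_DN27382_c0_g1_i1_1), the cytosolic thymidine kinase that salvages thymidine for S phase, did not pass the test. Its values were 9.68, 11.9 and 14.6 FPKM in the Ori fish, 2.42, 2.69 and 5.28 FPKM in the D14FL fish, and 4.68, 3.5 and 11.3 FPKM in the D30FL fish. The D14FL fish were all below the Ori fish (log2 change -1.97, SE 0.43, limma adjusted p = 0.0686), and D30FL 3 lay within the Ori range. RRM1, the large subunit of ribonucleotide reductase, showed no such separation. It lay between 3.32 and 5.93 FPKM in D14FL and between 3.14 and 10.1 FPKM in Ori, a log2 change of -0.60 (SE 0.42, limma adjusted p = 0.785). The 2 subunits of 1 enzyme thus gave different values in these fish, a difference that was not tested.

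The origin licensing and helicase genes lay below the median of all transcripts at day 14 by smaller amounts, and none of the 8 was called. Before that median was subtracted, 7 of the 8 were below day 0. MCM7 was not, with a mean of 9.58 FPKM in Ori and 9.68 FPKM in D14FL. The log2 changes of the 8 ran from -0.35 to -1.53, with a median of -1.12. In 3 of the 8 (CDC6, MCM2 and CDC45) the D14FL fish lay below the Ori fish without overlap, as in 6.7% of all tested transcripts. CDC6 (TRINITY_DN28532_c0_g1_i5_3), the helicase loader, had 3.67, 2.77 and 4.53 FPKM in the Ori fish, 1.25, 1.6 and 0.547 FPKM in the D14FL fish, and 4.42, 1.28 and 4.37 FPKM in the D30FL fish. The D14FL fish were the low ones together with D30FL 2, and the other 2 D30FL fish were at the Ori level. Its log2 change at day 14 was -1.53 (SE 0.44, limma adjusted p = 0.157).

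Within the MCM ring, whose 6 subunits act together, the levels were uneven. MCM3 (TRINITY_DN26456_c1_g2_i3_3), the most abundant of them, stood at 23.6, 21.1 and 37 FPKM in the Ori fish, 10.8, 27.8 and 15.8 FPKM in the D14FL fish, and 28.2, 16.5 and 37.3 FPKM in the D30FL fish. The groups overlapped, with D14FL 2 above 2 of the Ori fish. MCM2 lay between 2.87 and 5.52 FPKM in D14FL and between 7.79 and 12.5 FPKM in Ori, with no overlap, whereas MCM7 lay between 7.23 and 11.1 FPKM in D14FL and between 6.91 and 12.8 FPKM in Ori. The log2 changes at day 14 were -1.39 for MCM2, -1.24 for MCM6, -1.01 for MCM3, -0.80 for MCM4, -0.57 for MCM5 and -0.35 for MCM7, with SEs between 0.35 and 0.60 and adjusted p between 0.322 and 0.969. Summed up as the median of the 6 subunits after centring each on its mean over the 9 fish, the ring was highest in Ori 1 (0.87), Ori 3 (0.80) and D30FL 3 (0.73) and lowest in D30FL 2 (-1.40).

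At the fork, PCNA (TRINITY_DN36360_c0_g2_i2_2), the sliding clamp, was the most abundant S phase transcript. It had 103, 80.4 and 144 FPKM in the Ori fish, 51, 70.9 and 29.7 FPKM in the D14FL fish, and 78.8, 30.5 and 133 FPKM in the D30FL fish. The D14FL fish lay below every Ori fish without overlap, while the D30FL fish were spread from the lowest D14FL level to the Ori level. Its log2 change at day 14 was -1.52 (SE 0.50, limma adjusted p = 0.202). UHRF1, which copies DNA methylation to the new strand with DNMT1, ran from 4.07 to 4.72 FPKM in D14FL and from 5.81 to 11.4 FPKM in Ori (log2 change -1.07, limma adjusted p = 0.376). CCNE2, the cyclin E of S phase entry (TRINITY_DN25818_c0_g6_i1_3), was a low transcript at 1.81, 1.35 and 2.34 FPKM in the Ori fish, 0.765, 0.000242 and 0.999 FPKM in the D14FL fish, and 1.3, 2.49 and 1.18 FPKM in the D30FL fish. All D14FL fish were below all Ori fish and all D30FL fish, but the best protein match of this transcript in the non-redundant database names NAGPA, a lysosomal enzyme, so its identity is uncertain.

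The mitosis members had a median log2 change of -1.47 at day 14, beside -1.27 for the S phase members, and 20 of 21 were below the median of all transcripts. Among the cyclins and CDK1, 3 of 5 were lower without overlap, as were 6.7% of all tested transcripts, and none of the 5 was called. CCNB3 (TRINITY_DN32551_c1_g1_i1_3), a B-type cyclin, had 12.7, 13.7 and 24 FPKM in the Ori fish, 5.53, 4.52 and 8.02 FPKM in the D14FL fish, and 4.16, 6.32 and 9.74 FPKM in the D30FL fish. Every later fish was below every Ori fish, with a log2 change at day 14 of -1.70 (SE 0.39, limma adjusted p = 0.0856). CCNA2, the cyclin of late S phase and G2, ran from 2.02 to 5.14 FPKM in D14FL and from 8.13 to 18.3 FPKM in Ori (log2 change -2.12). CCNB1, the main mitotic cyclin, ran from 3.79 to 7.45 FPKM in D14FL and from 9.25 to 20.2 FPKM in Ori (log2 change -1.71), and CCNB2, its relative, from 2.1 to 4.33 FPKM in D14FL and from 4.29 to 7.54 FPKM in Ori, with a small overlap. CDK1 (TRINITY_DN35453_c0_g1_i2_1), their kinase and the most abundant mitosis member, stood at 18.1, 18.5 and 45.5 FPKM in the Ori fish, 10.2, 10.2 and 20 FPKM in the D14FL fish, and 14.9, 17.3 and 28.4 FPKM in the D30FL fish. Ori 3 alone was far above the rest, the groups overlapped, and the log2 change at day 14 was -1.29 (SE 0.43, limma adjusted p = 0.227).

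All 5 mitotic and checkpoint kinases had their D14FL fish below their Ori fish without overlap, as had 6.7% of all tested transcripts. AURKA (TRINITY_DN35445_c0_g1_i6_2), which matures the spindle poles, had 11.6, 15.9 and 15.8 FPKM in the Ori fish, 2.9, 2.41 and 6.82 FPKM in the D14FL fish, and 5.52, 4.13 and 8.97 FPKM in the D30FL fish. Every later fish lay below the lowest Ori fish, and fish 3 was the highest within each later group. AURKA averaged 4.04 ± 2.42 FPKM in D14FL and 14.4 ± 2.45 FPKM in Ori (SD, n = 3 each), and its log2 change was -2.09 (SE 0.40, limma adjusted p = 0.0475). Swiss-Prot names this transcript Aurora kinase A, and its best match in the non-redundant database is an aurora kinase C-like protein, so which Aurora gene it is remains uncertain. PLK1 (TRINITY_DN38356_c0_g1_i1_1), the Polo kinase of mitotic entry, had 8.39, 9.64 and 13.1 FPKM in the Ori fish, 2.89, 3.31 and 4.89 FPKM in the D14FL fish, and 3.48, 3.93 and 5.35 FPKM in the D30FL fish. The 2 later groups covered nearly the same range and neither reached the Ori fish, with a log2 change at day 14 of -1.66 (SE 0.34, limma adjusted p = 0.0668).

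AURKB (TRINITY_DN35115_c0_g1_i2_2), the kinase of the chromosomal passenger complex, had 24.9, 22.4 and 31.6 FPKM in the Ori fish, 10.6, 8.44 and 20.2 FPKM in the D14FL fish, and 9.15, 9.75 and 20 FPKM in the D30FL fish. In both later groups fish 3 was the highest, just below the lowest Ori fish (log2 change at day 14 of -1.41, SE 0.39, limma adjusted p = 0.154). The checkpoint kinase BUB1 ran from 0.908 to 1.64 FPKM in D14FL and from 2.24 to 4.89 FPKM in Ori. Its partner BUB1B ran from 1.67 to 2.67 FPKM in D14FL and from 5.63 to 10.8 FPKM in Ori, with log2 changes of -1.38 and -1.82 for BUB1 and BUB1B. Neither passed the test.

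Among the proteins of the centromere, BIRC5 (survivin, a passenger protein) lay between 4.54 and 8.84 FPKM in D14FL and between 13.8 and 30.1 FPKM in Ori (log2 change -1.82, limma adjusted p = 0.106). The transcript named CENPE, a kinetochore motor, lay between 2.77 and 3.52 FPKM in D14FL and between 5.66 and 11.5 FPKM in Ori, but its best protein match is a beta-mannosidase, so its identity is uncertain. CENPF, a large kinetochore protein, was the 1 member above the median of all transcripts at day 14, and is described because of that. Its chosen transcript (TRINITY_DN31309_c0_g1_i8_3) had 3.05, 2.09 and 1.83 FPKM in the Ori fish, 3.83, 3.46 and 4.33 FPKM in the D14FL fish, and 2.51, 1.6 and 3.85 FPKM in the D30FL fish. All D14FL fish lay above all Ori fish, with a log2 change of 0.18 (SE 0.37, limma adjusted p = 0.371). A second CENPF transcript, matched to the sterlet protein, had 2.97, 3.94 and 7.01 FPKM in the Ori fish and 1.23, 0.81 and 1.85 FPKM in the D14FL fish, a log2 change of -1.64 (limma adjusted p = 0.126). At day 14 the 2 transcripts of CENPF thus lay on opposite sides of the Ori fish.

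The spindle motors and microtubule factors had log2 changes down to -1.52 at day 14. Of the 4, 1 (KIF11) was lower without overlap, as were 6.7% of all tested transcripts. KIF11, which pushes the spindle poles apart, lay between 2.4 and 5.27 FPKM in D14FL and between 7.35 and 9.81 FPKM in Ori. The other tested KIF11 transcripts overlapped the Ori fish, with log2 changes of -1.02 and -0.34 at day 14 (limma adjusted p = 0.451 and 0.966). KIF23 (TRINITY_DN34364_c0_g1_i2_2), a motor of cytokinesis, had 3.92, 5.75 and 6.67 FPKM in the Ori fish, 1.5, 2.02 and 4.52 FPKM in the D14FL fish, and 4.66, 4.12 and 4.56 FPKM in the D30FL fish. The low values were those of D14FL 1 and D14FL 2, and D14FL 3 matched the D30FL fish. A second KIF23 transcript overlapped the Ori fish, with log2 changes of -0.40 at day 14 and 0.27 at day 30 (limma adjusted p = 0.987 and 0.498). KIF20A, another motor of cytokinesis, lay between 1.11 and 4.75 FPKM in D14FL and between 2.71 and 6.57 FPKM in Ori. NUSAP1, which bundles spindle microtubules, lay between 3.21 and 8.06 FPKM in D14FL and between 6.26 and 17.1 FPKM in Ori. Both overlapped through D14FL 3.

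Among the genes of mitotic exit, UBE2C (TRINITY_DN28410_c0_g1_i2_2), the ubiquitin-conjugating enzyme of the anaphase-promoting complex, had 24.4, 18.6 and 30.5 FPKM in the Ori fish, 8.78, 6.64 and 15.1 FPKM in the D14FL fish, and 14.2, 8.92 and 18.6 FPKM in the D30FL fish. The D14FL fish were all below the Ori fish, and D30FL 3 was just below Ori 2 (log2 change at day 14 of -1.62, SE 0.38, limma adjusted p = 0.0949). CDC20, the activator of that complex, lay between 3.79 and 10.9 FPKM in D14FL and between 9.95 and 31.2 FPKM in Ori. ESPL1 (separase), which cuts the link between sister chromatids, lay between 0.672 and 1.18 FPKM in D14FL and between 1.64 and 1.86 FPKM in Ori, and TOP2A, the topoisomerase that untangles chromosomes, between 3.05 and 5.2 FPKM in D14FL and between 6.17 and 11.1 FPKM in Ori. ESPL1 and TOP2A were separated without overlap, and CDC20 was not. ESPL1 passed the filter on low values only with the Ori fish, so a decrease was built into its passing. Their log2 changes were -1.74 for CDC20, -0.98 for ESPL1 and -1.40 for TOP2A, and none was called.

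The 2 members of neither phase lay further below day 0 than the median member. MKI67 (TRINITY_DN30938_c0_g1_i1_3), the proliferation antigen that coats mitotic chromosomes, had 3.51, 3.48 and 4.56 FPKM in the Ori fish, 0.579, 0.594 and 0.972 FPKM in the D14FL fish, and 0.543, 0.643 and 1.36 FPKM in the D30FL fish. All later fish lay well under all Ori fish (log2 change at day 14 of -1.88, SE 0.37, limma adjusted p = 0.0537). MKI67 passed the filter on low values only with the Ori fish, so its decrease is no independent result. The best protein match of this transcript is another cell division protein, CDCA2, so its name is uncertain. A second transcript with the name MKI67, whose best match is a receptor tyrosine phosphatase, had 0.531, 1.8 and 1.98 FPKM in the Ori fish, 1.78, 0.772 and 2.17 FPKM in the D14FL fish, and 1.04, 3.05 and 0.982 FPKM in the D30FL fish. Its groups overlapped, with log2 changes of -0.29 at day 14 (limma adjusted p = 0.914) and -0.25 at day 30 (limma adjusted p = 0.889). STMN1 (TRINITY_DN28453_c0_g1_i3_1), or stathmin, which takes microtubules apart, was the most abundant member of all. It had 204, 181 and 351 FPKM in the Ori fish, 70.2, 58.8 and 75.8 FPKM in the D14FL fish, and 65.8, 22.1 and 186 FPKM in the D30FL fish. The D14FL fish lay far below the Ori fish, and D30FL 3 was just above the lowest Ori fish (log2 change at day 14 of -2.16, SE 0.59, limma adjusted p = 0.116).

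**Figure D2:**
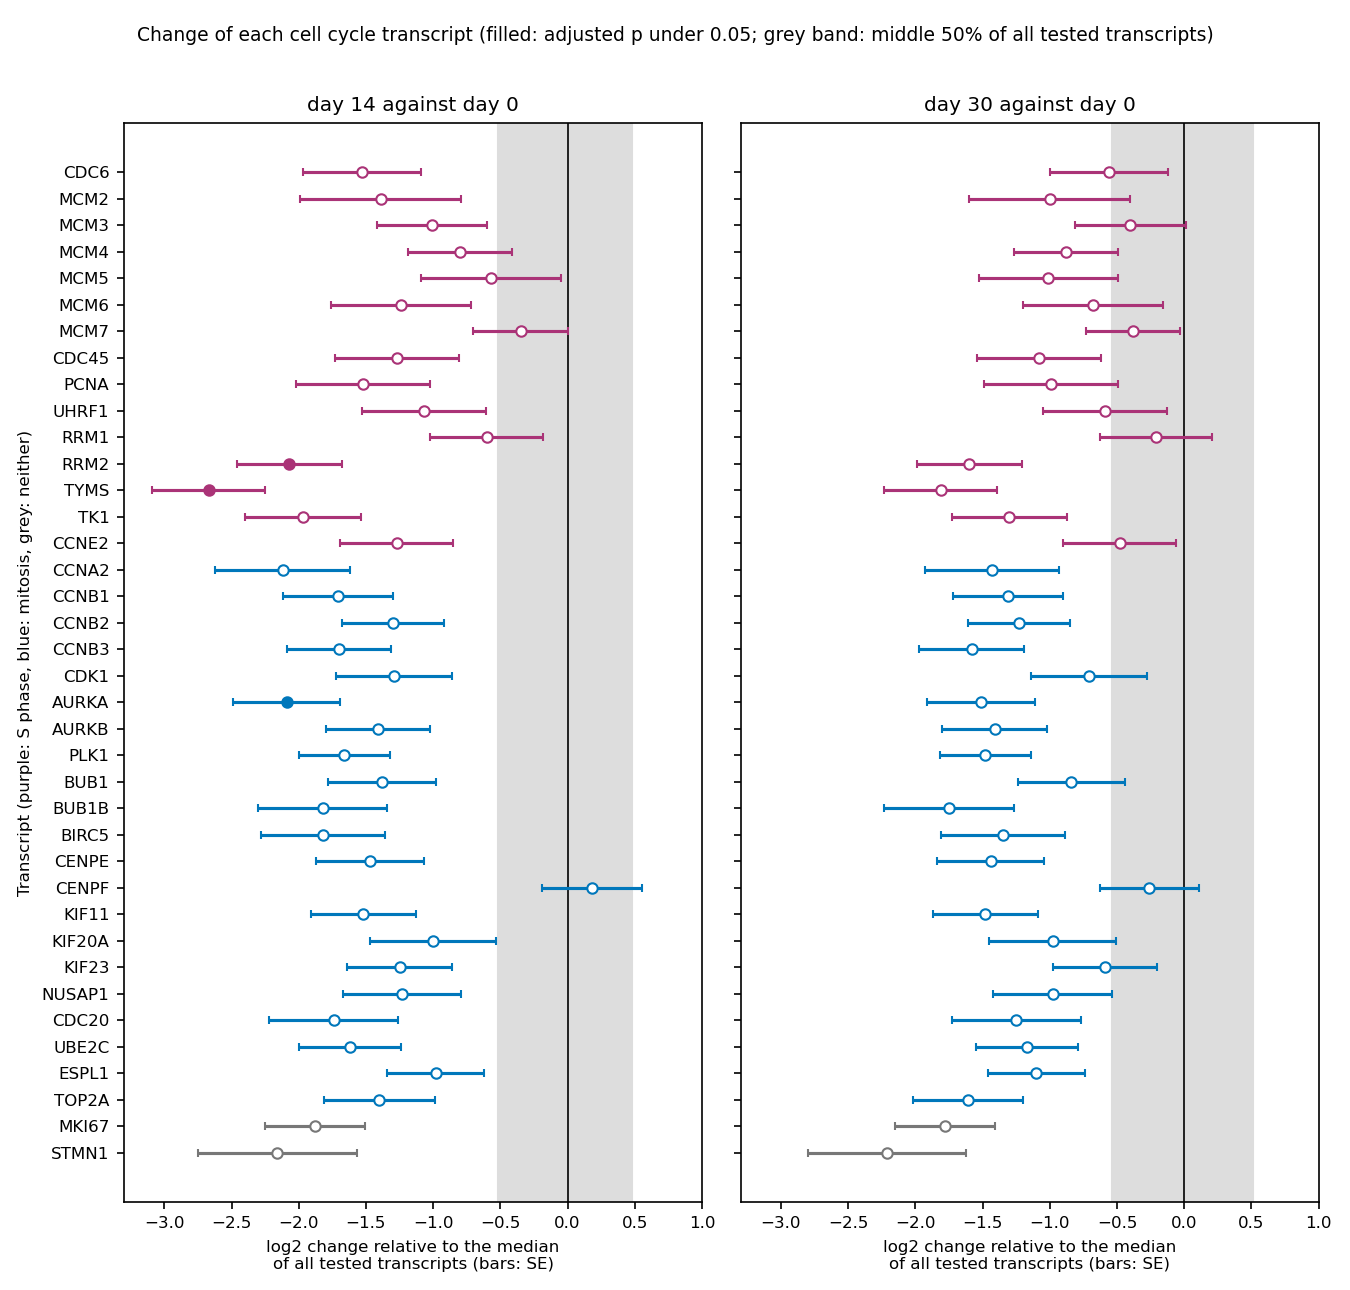
Log2 change relative to the median of all tested transcripts (horizontal axis, bars show SE) of the 38 cell cycle transcripts at day 14 and at day 30 against day 0, with filled points for an adjusted p under 0.05. At day 14 all but CENPF lie left of 0 and TYMS, RRM2 and AURKA are filled, and at day 30 all 38 lie left of 0 and none is filled.

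The number of members called depended on scaling and on single fish. With median-of-ratios scaling 9 members were called lower at day 14 (TYMS, RRM2, TK1, CCNA2, CCNB1, CCNB3, AURKA, PLK1 and MKI67), where 1.19% of all transcripts were. Of these, MKI67 passed the filter on low values only with the Ori fish, so its call is no independent result. Without any 1 of the Ori or D14FL fish none of the 38 was called, with adjusted p of TYMS between 0.0548 and 0.0918, while 37 or 38 of the 38 still lay below the median of all transcripts. In those 6 fits between 0.0283% and 0.161% of all transcripts were called lower. The D30FL fish enter this comparison through the estimate of spread and through the filter on low values, which sets the transcripts tested. Without D30FL 1, 2 and 3 in turn, 52899, 51633 and 53306 transcripts were tested. Leaving out D30FL 1 left 1 member called at day 14, TYMS, beside 0.35% of all transcripts called lower. Leaving out D30FL 2 gave 7 members beside 1.39% of all transcripts, and leaving out D30FL 3 gave 8 beside 0.983%.

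At day 30 the cell cycle transcripts were again below day 0 on the whole, but with wide differences between the 3 fish. All 38 members lay below the median of all transcripts, with a median log2 change of -1.14, and 22 were lower by more than 1 unit, as 11.4% of all transcripts were. By limma none was called in either direction (unadjusted p under 0.05 in 14 lower and 0 higher, beside 5.08% of all transcripts lower), where 0.732% of all tested transcripts were called lower and 2.49% higher. In 13 of 38 members the D30FL fish did not overlap the Ori fish, as in 6.14% of all tested transcripts, and 10 of those 13 were mitosis members. Without D30FL 3 the median log2 change was -1.58, all 38 members lay below the median of all transcripts, and 26 of 38 did not overlap, as in 11.4% of all tested transcripts. ESPL1 and MKI67, which passed the filter on low values only with the Ori fish, are among the 13, the 22 and the 26. ESPL1 is also among the 10, and MKI67 among the 14. D30FL 3 was the later fish nearest to Ori, so leaving it out favours a larger decrease. Without D30FL 1 or without D30FL 2 none was called, beside 0.0473% and 0.17% of all transcripts called lower. In those fits 38 and 34 of 38 members lay below the median of all transcripts.

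The members with the smallest p at day 30 were MKI67, TYMS, PLK1, RRM2, CCNB3 and STMN1. MKI67 averaged 0.848 ± 0.445 FPKM in D30FL and 3.85 ± 0.617 FPKM in Ori (SD, n = 3 each), with a log2 change of -1.78 (SE 0.37, limma adjusted p = 0.0582). MKI67 passed the filter on low values only with the Ori fish, so a decrease was built into its passing. TYMS averaged 5.21 ± 3.38 FPKM in D30FL and 15.1 ± 6.4 FPKM in Ori, a log2 change of -1.81 (SE 0.42, limma adjusted p = 0.0792). PLK1 averaged 4.25 ± 0.976 FPKM in D30FL and 10.4 ± 2.46 FPKM in Ori, a log2 change of -1.48 (SE 0.34, limma adjusted p = 0.0875). For these 3 genes every D30FL fish was below every Ori fish. The log2 changes of RRM2, CCNB3 and STMN1 were -1.60, -1.58 and -2.21, with limma adjusted p of 0.0954, 0.0972 and 0.1. RRM2 and CCNB3 were separated from Ori in all fish, and STMN1 was not, because D30FL 3 lay within the Ori range. Without D30FL 3, a choice that favours a larger decrease, the log2 changes were -2.05 for MKI67 (limma adjusted p = 0.0290), -1.71 for PLK1 (0.0507), -2.10 for RRM2 (0.0205) and -1.93 for CCNB3 (0.0414).

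The number called at day 30 turned on D30FL 3, and leaving out D30FL 1 or D30FL 2 gave no call. Without D30FL 3, 9 members were called lower, where 2.34% of all transcripts were: RRM2, TYMS, CCNB3, AURKB, BUB1B, KIF11, TOP2A, MKI67 and STMN1. D30FL 3 was set apart from these same data as the later fish nearest to Ori, so leaving it out favours calls of a decrease. The log2 change of STMN1 was then -3.04 (SE 0.47, limma adjusted p = 0.0131) and that of TYMS -2.31 (SE 0.40, limma adjusted p = 0.0205). The S phase median, -0.88 with all fish, was -1.28 without D30FL 3 and -0.30 without D30FL 2, and the mitosis median, -1.31 with all fish, was -1.70 and -1.08. With all fish and median-of-ratios scaling, 4 members were called lower at day 30 (TYMS, PLK1, CCNB3 and MKI67), beside 1.31% of all transcripts. MKI67 is counted among both the 9 and the 4. It passed the filter on low values only with the Ori fish, so its calls are no independent result.

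**Figure D3:**
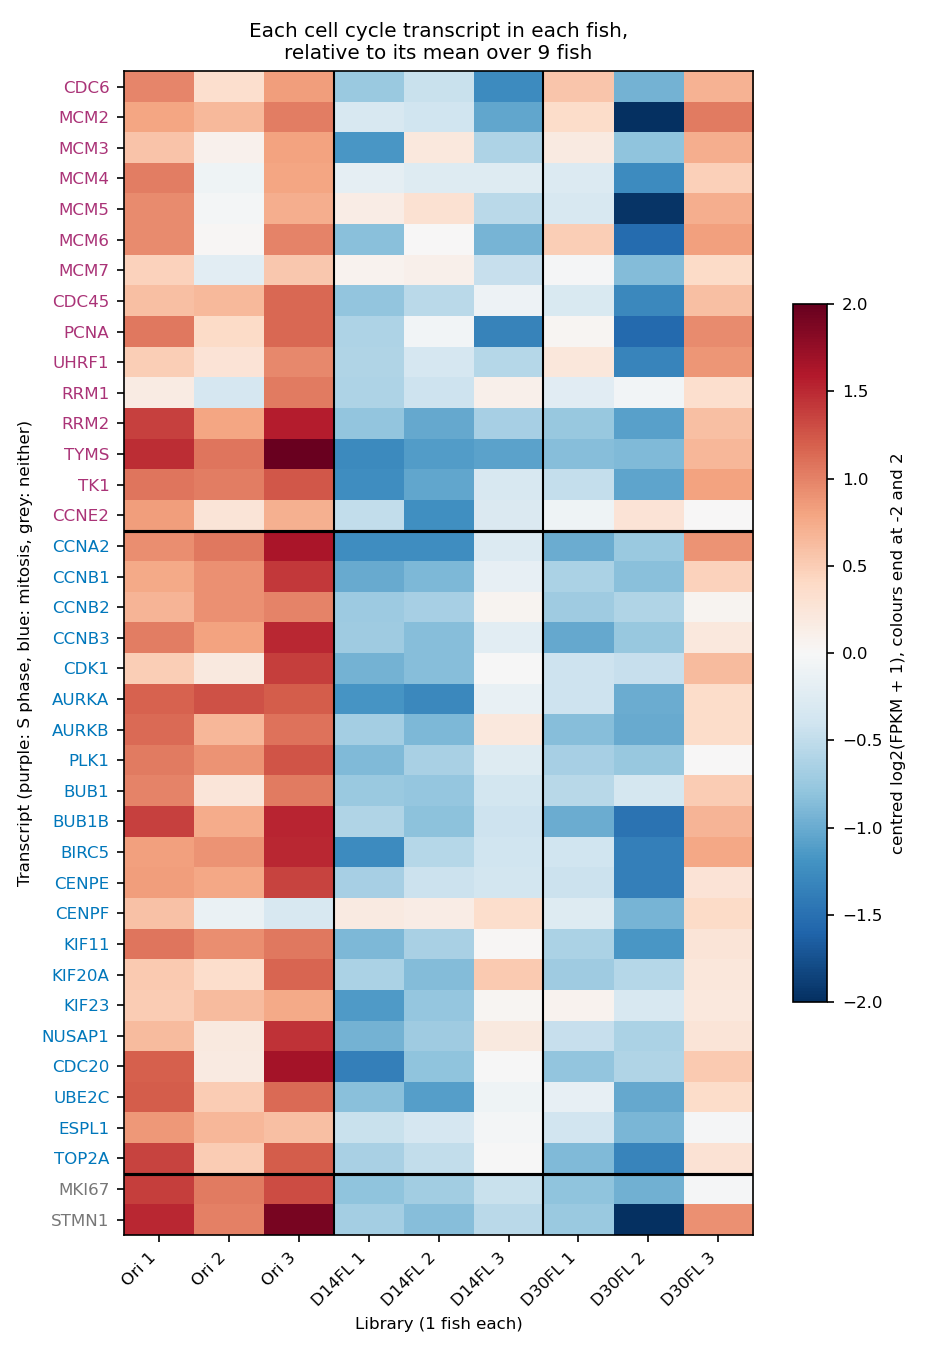
Centred log2(FPKM + 1) of the 38 transcripts (one line each, S phase on top, then mitosis, then MKI67 and STMN1) in the 9 libraries from Ori on the left to D30FL on the right, each library centred on its median transcript and each transcript on its mean. Ori fish are red for nearly all transcripts, D14FL fish and D30FL 2 are mostly blue, and D30FL 3 is red for most.

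For each fish the members' values were centred as in the map of transcripts by fish and their median taken. These medians were 0.95, 0.64 and 1.15 in the Ori fish, -0.74, -0.68 and -0.27 in the D14FL fish, and -0.42, -0.95 and 0.47 in the D30FL fish. Every Ori fish was therefore above every later fish, D30FL 3 came next, and the lowest fish was D30FL 2, which was also farthest from Ori on the main axis of variation. The summed FPKM of the 38 members was 661, 597 and 1070 in the Ori fish, 279, 304 and 337 in the D14FL fish, and 359, 216 and 693 in the D30FL fish, so that D30FL 3 lay above 2 of the Ori fish. Ori 3 had the highest value of all 9 fish in 30 of 38 members, and D30FL 3 in 4.

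Counted against the Ori fish, 33, 31 and 28 of 38 members were below all 3 Ori fish in D14FL 1, 2 and 3, as were 14.3%, 16.1% and 20.1% of all tested transcripts. The counts were 27, 35 and 14 of 38 in D30FL 1, 2 and 3, beside 17.6%, 21.4% and 17.6% of all tested transcripts. ESPL1 and MKI67, which passed the filter on low values only with the Ori fish, are counted in every later fish. In D30FL 3, 5 members were above all 3 Ori fish, and the share of all tested transcripts above them was 35.9%. D30FL 3 was the exception in its group for the members, with less than the count of any other later fish.

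**Figure D4:**
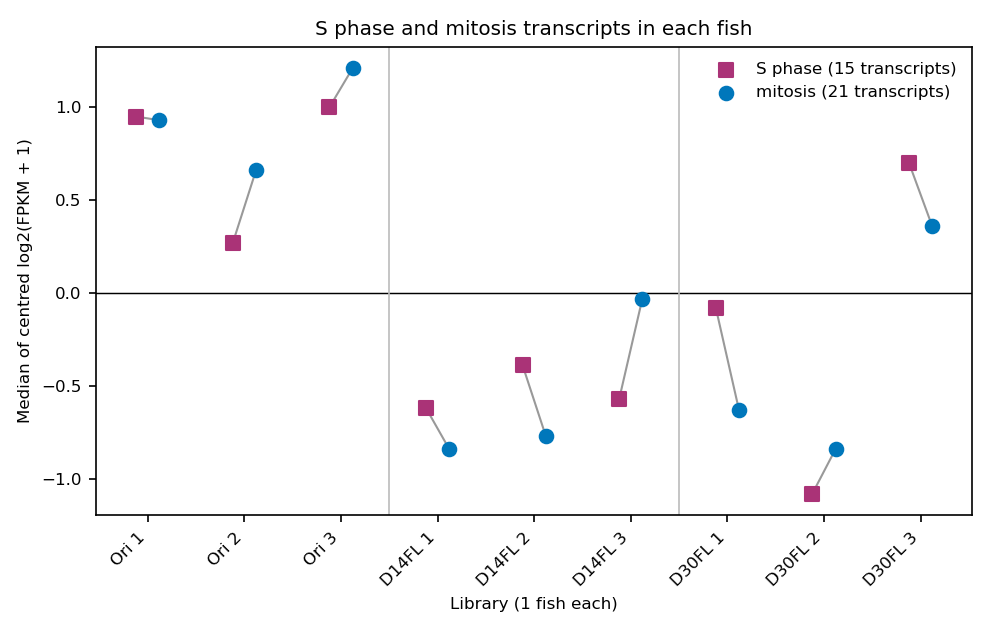
Median centred log2(FPKM + 1) (vertical axis) of the 15 S phase members (squares) and the 21 mitosis members (circles) in each of the 9 fish, joined within a fish. Both medians are above 0 in the 3 Ori fish and in D30FL 3, and the 2 marks of a fish change places between fish of the same group.

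The S phase and mitosis members followed the same order of groups but parted within single fish. The S phase medians were 0.95, 0.27 and 1.00 in the Ori fish, -0.62, -0.39 and -0.57 in the D14FL fish, and -0.08, -1.08 and 0.70 in the D30FL fish. The mitosis medians were 0.93, 0.66 and 1.21 in the Ori fish, -0.84, -0.77 and -0.03 in the D14FL fish, and -0.63, -0.84 and 0.36 in the D30FL fish. S phase minus mitosis was 0.02, -0.40 and -0.22 in the Ori fish, 0.22, 0.38 and -0.54 in the D14FL fish, and 0.55, -0.24 and 0.34 in the D30FL fish. Its sign differed between fish of each group and the groups overlapped. D14FL 3 was the fish with the most mitosis relative to S phase transcript: 14 of 21 mitosis members and 12 of 15 S phase members were below all Ori fish there, beside 20 of 21 and 11 of 15 in D14FL 1. D30FL 1 stood at the other end, with 19 of 21 mitosis members but 6 of 15 S phase members below all Ori fish.

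By role, the nucleotide supply genes had centred medians of 1.22, 0.90 and 1.40 in the Ori fish, -1.02, -1.03 and -0.50 in the D14FL fish, and -0.62, -0.97 and 0.64 in the D30FL fish. Origin licensing and firing gave 0.87, 0.06 and 0.82 in the Ori fish, -0.53, -0.12 and -0.58 in the D14FL fish, and 0.08, -1.28 and 0.71 in the D30FL fish. In the licensing genes Ori 2 and D14FL 2 were thus nearly level and D30FL 1 was level with Ori 2. The mitotic and checkpoint kinases gave 1.13, 0.74 and 1.21 in the Ori fish, -0.74, -0.82 and -0.26 in the D14FL fish, and -0.66, -1.0 and 0.37 in the D30FL fish. Every Ori fish lay above every later fish in nucleotide supply, in the kinases, in all other mitosis roles, and in MKI67 and STMN1. This did not hold for licensing and firing, for the fork genes PCNA and UHRF1, or for CCNE2.

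Between day 30 and day 14 none of the 38 was called (limma, unadjusted p under 0.05 in 0 members, with 0.00185% of all tested transcripts called lower and 0.0% called higher), and the median log2 change was 0.38, with 30 members above the median of all transcripts. The median was 0.48 for S phase and 0.17 for mitosis members, and the S phase median was 0.02 without D30FL 3 and 0.98 without D30FL 2. CDC6 had the smallest p, with 3.36 ± 1.8 FPKM in D30FL and 1.13 ± 0.537 FPKM in D14FL (SD, n = 3 each) and a log2 change of 0.96 (SE 0.44, limma adjusted p = 1.0). TYMS (log2 change 0.85) and CCNE2 (0.77) were the 2 members in which every D30FL fish was above every D14FL fish, which held for 3.83% of all tested transcripts, so 2 of 38 is near that share. KIF23, TK1 and MCM3 followed with log2 changes of 0.65, 0.67 and 0.60, all with a limma adjusted p of 1.0. This comparison shares its D30FL and D14FL fish with the comparisons above.

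Several members had more than 1 assembled transcript, which gave a second reading of the same gene. The 38 genes had 66 transcripts in all, and 17 genes had 2 or more. Of the 19 further transcripts that were tested, 16 lay below the median of all transcripts at day 14 and 14 at day 30, and none was called. Near-identical copies can share reads, so these are not independent of the chosen transcripts. CCNA2 had a second transcript at 4.91, 4.55 and 11.7 FPKM in the Ori fish and 2.12, 1.81 and 4.57 FPKM in the D14FL fish, which overlapped narrowly. A second STMN1 transcript had 53.9, 38.9 and 109 FPKM in the Ori fish and 13.3, 12.8 and 38.2 FPKM in the D14FL fish, without overlap, but its best protein match is a human stathmin. One more STMN1 transcript, with a monkey protein as best match, lay above Ori at day 14 without overlap (log2 change 1.0, limma adjusted p = 0.0854). The best protein match was a sturgeon of the genus Acipenser in 22 of the 38 chosen transcripts, another fish in 15, and a caecilian in MCM3.

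GINS2 and TPX2 could be read by description only. The transcript described as the PSF2 subunit of GINS had 3.08, 4.52 and 7.26 FPKM in the Ori fish, 3.33, 3.33 and 1.85 FPKM in the D14FL fish, and 4.95, 2.04 and 7.95 FPKM in the D30FL fish. The transcript described as the targeting protein for Xklp2 had 17.7, 17.1 and 29.8 FPKM in the Ori fish, 5.49, 5.27 and 11.2 FPKM in the D14FL fish, and 7.22, 7.56 and 15.6 FPKM in the D30FL fish. The first overlapped between groups, and in the second every later fish lay below every Ori fish. They are not counted among the 38.

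Other genes of the same machinery, taken from lists written from general knowledge, also lay mostly below the median of all transcripts. These lists were chosen with earlier results of these data known, so their counts are no independent support. Of 44 further replication genes, 41 lay below the median of all transcripts at day 14 and 38 at day 30, with median log2 changes of -0.82 and -0.64. Below that median is not always below day 0, because the median itself was 0.38 and 0.37. ORC4, RFC2 and SLBP lay below it at day 14, yet their mean FPKM was higher in D14FL than in Ori. RFC1 lay above it, with means of 3.63 FPKM in Ori and 7.27 FPKM in D14FL (log2 change 0.45, limma adjusted p = 0.143). None of the 44 was called at either day. With median-of-ratios scaling 1 was called lower at each day, beside 1.19% of all transcripts at day 14 and 1.31% at day 30. DUT, which keeps uracil out of DNA, had the smallest p, with 30.5, 36.1 and 22.9 FPKM in the D14FL fish and 59.1, 82.6 and 124 FPKM in the Ori fish (log2 change -1.88, limma adjusted p = 0.0610). CLSPN, the fork checkpoint adaptor claspin, had a log2 change of -1.94 (limma adjusted p = 0.0918). Of 41 further mitosis genes, 40 lay below the median at day 14 and 39 at day 30, with medians of -1.16 and -0.92. Without D30FL 3 the day 30 medians were -1.02 for replication and -1.22 for mitosis genes, with 3 called lower in each list and 1 mitosis gene called higher. In that fit 1248 of all 53306 tested transcripts were called lower and 5357 higher.

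At day 30 PRC1 fell and BUB3 rose among these 41 mitosis genes, and at day 14 none was called. At day 30, 0.732% of all tested transcripts were called lower and 2.49% higher, so 1 of 41 called higher is near that share. PRC1, which bundles the central spindle, had 2.24, 1.52 and 1.76 FPKM in the D30FL fish and 5.73, 7.22 and 9.76 FPKM in the Ori fish (log2 change -1.94, SE 0.38, limma adjusted p = 0.0463). BUB3, a checkpoint protein that also acts outside mitosis, had 41.1, 54.6 and 37.9 FPKM in the D30FL fish and 20.8, 16 and 20.6 FPKM in the Ori fish (log2 change 0.80, SE 0.28, limma adjusted p = 0.0461). In both genes the groups did not overlap. With median-of-ratios scaling 2 of the 41 were called lower at each day, beside 1.19% of all transcripts at day 14 and 1.31% at day 30. BUB3 was not called with that scaling (limma adjusted p = 0.173). Without D30FL 3 both were still called, and leaving out any other single fish ended both calls (adjusted p up to 0.14 for PRC1 and 0.132 for BUB3).

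The 12 tested transcription factors of the cycle had median log2 changes of -0.33 at day 14 and -0.38 at day 30, and none was called. E2F8, a repressor of the E2F family, had the smallest p, with a log2 change of -1.09 at day 14 (limma adjusted p = 0.324), and FOXM1, which drives mitotic genes, had -0.35 (limma adjusted p = 0.972). The 7 tested G1 cyclins and kinases had medians of -0.33 and 0.11, and none was called. CCND2, a D-type cyclin that starts G1, and CCNH, a subunit of the kinase that activates other cyclin-dependent kinases, had the smallest p at day 30 (limma adjusted p = 0.132 and 0.179).

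Among 13 cycle inhibitors and pocket proteins, 3 rose at day 14 (GADD45G, CDKN1A and BTG1) and 2 at day 30 (GADD45G and CDKN1A), while the list medians were -0.15 and -0.13. Of all tested transcripts 2.17% were called higher at day 14 and 2.49% at day 30. CDKN1A, the p21 inhibitor of cyclin-dependent kinases, had 1.48, 2.35 and 1.08 FPKM in the Ori fish, 15.6, 16.8 and 45.1 FPKM in the D14FL fish, and 54, 44 and 7.78 FPKM in the D30FL fish. Every later fish was above every Ori fish, D30FL 3 being the lowest of them. Its log2 changes were 2.82 at day 14 (SE 0.64, limma adjusted p = 0.0280) and 3.06 at day 30 (SE 0.64, limma adjusted p = 0.0228). GADD45G, a stress-induced growth arrest gene, had 54.5, 23.6 and 44.7 FPKM in the D14FL fish and 1.68, 3.32 and 2.2 FPKM in the Ori fish (log2 change 3.19, SE 0.46, limma adjusted p = 0.00518), and at day 30 it had 58.2, 47.6 and 18.1 FPKM in the D30FL fish (log2 change 3.14, limma adjusted p = 0.00602). BTG1, an antiproliferative gene, had a log2 change of 3.03 at day 14 (SE 0.77, limma adjusted p = 0.0426) and 2.20 at day 30 (limma adjusted p = 0.0817). GADD45G stayed called at both days whichever fish was left out (adjusted p up to 0.0338 at day 14 and 0.0383 at day 30). CDKN1A was not called at day 14 without any 1 Ori or D14FL fish (adjusted p 0.0713 to 0.0969), nor at day 30 without Ori 1, Ori 3, D30FL 1 or D30FL 2 (0.0776 to 0.0998), and BTG1 was not called at day 14 without any 1 Ori or D14FL fish (0.0822 to 0.127) or with median-of-ratios scaling (0.07). Without D30FL 3 the list had 3 higher and 1 lower at day 30, with a median of -0.09. Of all 53306 transcripts tested in that fit, 5357 were called higher and 1248 lower.

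**Figure D5:**
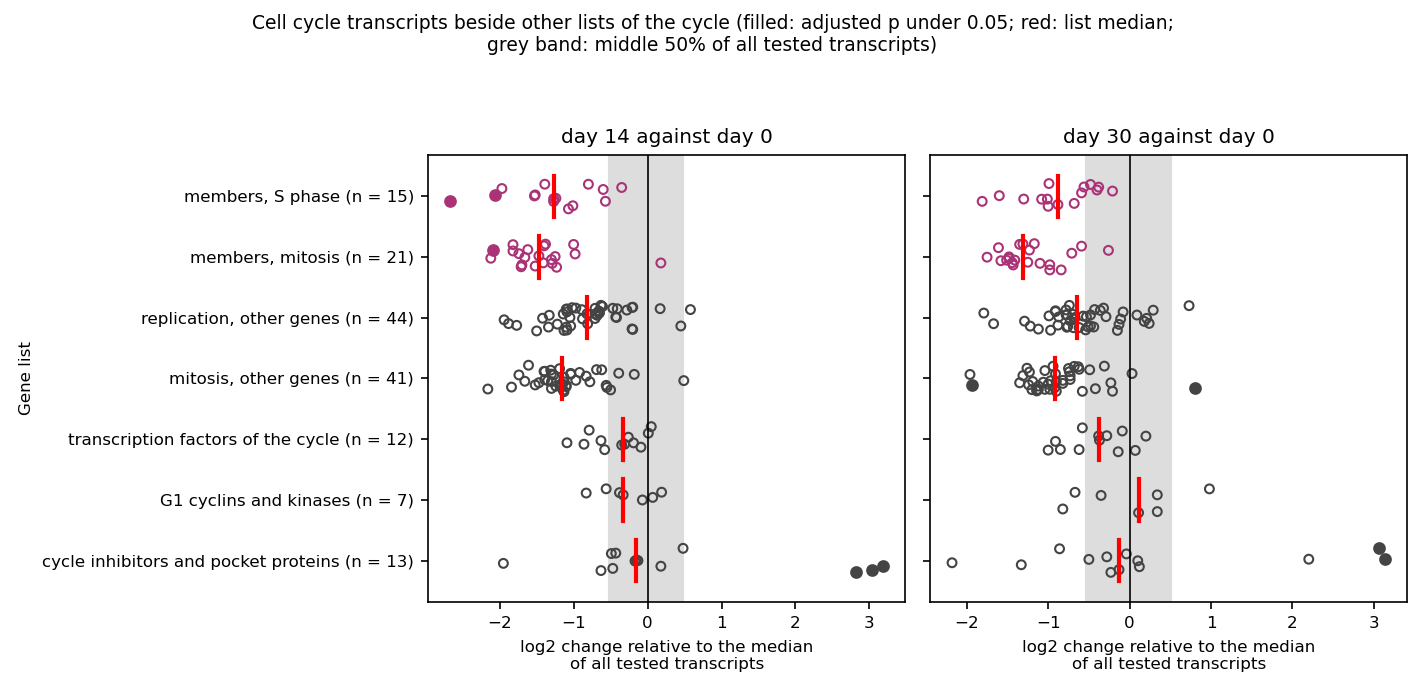
Log2 change relative to the median of all tested transcripts (horizontal axis) of each tested gene in the S phase and mitosis members and in 5 further lists of the cycle, at day 14 and at day 30 against day 0, with list medians in red and filled points for an adjusted p under 0.05. The 2 member lists and the other replication and mitosis genes lie mostly left of 0, and the 3 filled points on the far right at day 14 are CDKN1A, BTG1 and GADD45G.

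Markers of cell types that the gut samples could hold are given here beside the cell cycle genes. Of 8 tested stem and crypt cell markers none was called, with median log2 changes of -0.17 at day 14 and -0.28 at day 30 and summed levels of 74.6 to 142 FPKM in Ori, 72.2 to 169 FPKM in D14FL and 57.6 to 358 FPKM in D30FL. Of those 8, 5 lay below the median of all transcripts at day 14 and 6 at day 30. Of 15 tested enterocyte markers none was called, with medians of 0.22 and -0.31. Of 8 tested T and natural killer cell markers none was called, with medians of -0.90 and -1.11 and summed levels of 20 to 45 FPKM in Ori, 15.7 to 32.8 FPKM in D14FL and 16 to 20.3 FPKM in D30FL. Of those 8 markers, 6 lay below the median of all transcripts at each day. CD3E, a chain of the T cell receptor complex, was picked after its values were seen. It was lower without overlap at day 14, as were 6.7% of all tested transcripts. It had 7.68, 5.3 and 3.42 FPKM in the D14FL fish and 14.7, 8.06 and 10.6 FPKM in the Ori fish (limma adjusted p = 0.178).

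Pancreatic acinar markers had the largest median log2 changes of the lists given here, 4.59 at day 14 and 5.97 at day 30. Of 7 tested, 2 rose at day 14 and 5 at day 30, with summed levels of 15.8 to 64.3 FPKM in Ori, 111 to 7690 FPKM in D14FL and 957 to 3940 FPKM in D30FL. Of all tested transcripts 2.17% were called higher at day 14 and 2.49% at day 30, which also stands beside the fibroblast and endothelial counts below. CEL, CELA1, CPB1 and CTRC, which encode pancreatic digestive enzymes, were not called at day 30 without Ori 1 or without D30FL 1 (limma adjusted p 0.0605 to 0.124), and CEL was not called at day 14 without Ori 1, Ori 2, Ori 3 or D14FL 1 (0.0536 to 0.0775). Of 14 tested fibroblast and matrix markers 2 rose at day 14 (THBS1 and MMP2) and 3 at day 30, with medians of 0.66 and 0.56, and of 10 tested endothelial markers 1 rose at day 14 (PLVAP) and 2 at day 30 (PLVAP and ROBO4), with medians of 0.37 and 0.46. With median-of-ratios scaling 1 fibroblast marker, THBS1, and 0 endothelial markers were called at each day. With that scaling 0.803% of all transcripts were called higher at day 14 and 0.985% at day 30. Leaving out Ori 1 or D30FL 1 ended all 5 fibroblast and endothelial calls at day 30 (limma adjusted p 0.058 to 0.152). At day 14 THBS1 was not called without any 1 Ori fish, D14FL 1 or D14FL 3 (0.0755 to 0.107), MMP2 without Ori 1, Ori 2, any 1 D14FL fish or D30FL 1 (0.0522 to 0.114), and PLVAP without any 1 Ori or D14FL fish or D30FL 1 (0.0631 to 0.15). No transcript was called at either day among the markers of B and plasma cells (6 tested, medians -0.32 and -0.38), macrophages and granulocytes (10 tested, -0.18 and -0.12), erythrocytes (3 tested, 1.41 and 1.39), smooth muscle (7 tested, -0.06 and 0.83), germ cells (3 tested, 0.38 and 0.52) and liver (8 tested, 0.48 and -0.40). One marker was listed at 0 in at least 1 fish in each of the stem cell, enterocyte, acinar, B cell, macrophage, erythrocyte and fibroblast lists. Without D30FL 3 the day 30 medians were -0.25 for stem and crypt cells, -0.47 for enterocytes, -1.37 for T and natural killer cells, 6.33 for acinar cells, 0.42 for fibroblasts and 0.45 for endothelium. All 7 acinar markers were then called higher, beside 5357 of all 53306 tested transcripts. The part of these cell types in the cell cycle result was not tested. None of the 38 members was listed at 0 in any fish.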

How the data were processed

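Gut RNA of 9 fish was enriched for poly(A) on oligo(dT) beads, and the second cDNA strand was removed by digestion, per the labels' protocols. The values are the authors' FPKM, per the file headers and the table's own name, for 59331 transcripts of a de novo assembly with protein annotation. Per the submitters' processing notes, cutadapt 1.9 was among the tools and mm10 (a mouse genome) among the builds, without a stated role. The quantifier and the sequencing depth are not stated in the labels or the file. The lowest value above 0 is 3.63e-118, far below 1 read, so no whole reads could be recovered from these values and no counting interval is given.

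A transcript entered the test when 3 or more libraries had it at 1 FPKM or higher, which 54200 did. The test was limma, version 3.58.1 (lmFit and eBayes with trend, R version 4.3.3, data.table version 1.17.8), on log2(FPKM + 1), a scale that understates the change of low transcripts. All 9 libraries entered, with the group as the only term, two-sided, with 6 residual and 5.73 prior degrees of freedom. The p-values measure the spread between single fish. The fit was tested on simulated data. Summaries and plots used Python 3.11.15, pandas 2.3.3, numpy 2.4.6 and matplotlib 3.10.9.

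KEGG names were split at commas. Named with values per fish were called members, the 6 members of smallest p in each comparison, the 3 of highest mean level in each phase, and CENPF, which was chosen after its values were seen. Other members are given by range. For the other lists, called genes and some of smallest p are named, and FOXM1 and CD3E were added after their values were seen. Members and lists were chosen with earlier results of these data known. The lists were 5 of the cell cycle (other replication genes, other mitosis genes, transcription factors, G1 cyclins and kinases, inhibitors and pocket proteins) and 12 of cell types (stem and crypt cells, enterocytes, pancreatic acinar cells, B and plasma cells, T and natural killer cells, macrophages and granulocytes, erythrocytes, endothelium, fibroblasts, smooth muscle, germ cells, liver). From them 11 symbols were left out after reading their annotation, because their transcript is another protein, is shared with another symbol or has no Swiss-Prot match. Some genes of these lists are counted but not reported here by name.

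Alternatives were pseudocounts of 0.1 and 0.01, no filter or a mean FPKM of at least 5, scaling by median of ratios or by quantiles, a threshold of 0.1 on the adjusted p, only the 2 groups compared, no trend, the replicate number as a block, mammal, bird and bacterium matches left out, other readings of the gene names, all transcripts of a gene summed, and each library left out.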

Additional observations from a re-analysis of the deposited data

How the results depend on the processing

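No call of a named member changed direction under the alternatives run. The count of members called lower at day 14, 3 in the report, was 10 at an adjusted p under 0.1, 9 with median-of-ratios scaling, 8 with only the 2 groups compared, 5 with a mean FPKM of at least 5, 5 with quantile scaling and 1 with a pseudocount of 0.01. The share of all transcripts called lower moved too, from 0.6% to 1.61%, 1.19%, 1.17%, 1.13%, 0.939% and 0.181% in that order. Leaving out 1 library gave 0 to 8, beside 0.0283% to 1.39% of all transcripts. At day 30 the count of 0, beside 0.732% of all transcripts, was 5 at an adjusted p under 0.1 (1.98%), 4 with median-of-ratios scaling (1.31%), 1 with quantile scaling (1.01%), and 0 to 9 with 1 library left out (0.0339% to 2.34%). The median log2 change of S phase members at day 14 was -1.75 with a pseudocount of 0.01. With 1 library left out it ran from -1.44 to -1.10 at day 14, from -1.28 to -0.30 at day 30 and from 0.02 to 0.98 for day 30 against day 14. The mitosis median ran from -1.75 to -1.32, from -1.70 to -1.08 and from -0.08 to 0.45 in the same comparisons. The cause of these shifts was not tested. The call of RRM2 ended with all its transcripts summed (limma adjusted p = 0.0584), without trend (0.0648) and with a pseudocount of 0.01 (0.0541). AURKA was no longer called without a filter on low values (limma adjusted p = 0.0508), with a pseudocount of 0.1 (0.0511) or 0.01 (0.0602), without trend (0.0613), or with mammal, bird and bacterium matches left out (0.0515). Among the counts and medians under all alternatives, 277 values stayed within 1.5 times the count or 1 SD of the median, and 23 did not. Single genes kept their side of the threshold in 370 cases, lost a call in 30 and gained one in 33. With the replicate number as a block, 1 member (TYMS, adjusted p = 0.0415) was called lower at day 14 and 0 at day 30, beside 0.146% and 0.17% of all transcripts. The numbers do not pair the fish: same-numbered fish had correlations of deviations between -0.315 and 0.0843, and a fish was nearest to its own number in 3 of 18 checks. The alternatives chosen after seeing the data were reading the KEGG field as 1 name, adding GINS2 and TPX2 by description and leaving out CCNE2, CENPE and MKI67. They gave 3 members called lower at day 14 each time. The count without ESPL1 and MKI67 in the report was also added after seeing the data. Unknown depth limits what can be said of the lowest transcripts, such as CCNE2, ESPL1 and MKI67.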
